A study of Mus musculus with 7 samples.

Results

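Potassium channel genes were examined in brain RNA of mice homozygous for a knockout of Duf1220 and of wild-type mice. The members were all array probes whose platform gene symbol starts with Kcn, except Kcnj13, which gave 119 probes of 80 genes among the 25697 probes of the array. By symbol, 32 genes were voltage-gated channels, 12 were inward rectifiers, 13 were two-pore channels, 7 were calcium-activated channels or their Slo relatives and 16 were auxiliary subunits. Total RNA came from brain, with no region stated, of 7 male C57BL/6J mice of 21 weeks, with 1 Illumina array per mouse. The 4 wild-type mice carried the C57BL/6J allele and the 3 knockout mice were homozygous for the ko allele, whose construction the labels do not give. The values are normalized intensities, which depend on the probe as well as on the transcript, so a probe is compared between arrays, and a higher intensity at one probe than at another shows no higher level of its transcript.

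Potassium channels let potassium leave or enter cells and so set the resting potential and the shape and rate of action potentials. Voltage-gated subunits open on depolarisation, inward rectifiers hold the membrane near rest, two-pore channels carry background leak, and calcium-activated channels tie firing to calcium entry. Auxiliary subunits of the Kcnab, Kcne, Kcnip and Kcnmb groups have no pore and change the gating or surface level of the channels they bind. In bulk brain RNA, fewer cells of a type and less RNA per cell cannot be told apart.

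No potassium channel probe passed the test between knockout and wild type. Intensities under 16 were set to 16 before log2 values were taken, and 54 of the 119 probes, for 46 of the 80 genes, were above 16 on at least 3 arrays and so were tested. Over these 54 probes the adjusted p of limma ran from 0.754 to 0.986, and 0 passed at 0.05, as 0% of all 12833 tested probes did. At an unadjusted p under 0.05 the count was 0 of 54, against 4.2% of all tested probes, and the smallest unadjusted p of a member was 0.0555. The median log2 difference over the 46 genes was 0.0023 (23 higher, 23 lower), beside 0.0335 over all 9079 tested genes (4998 higher, 4081 lower). For 30 of the 46 genes the 95% interval lay within a log2 difference of 1 in both directions, and for the other 16 it did not.

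Wild-type array 2 stood apart from the other arrays before any comparison of groups. Its mean correlation with the others over all tested probes was 0.932, where that of the other 6 arrays ran from 0.970 to 0.981. It held the highest value of the 7 arrays at 20 of the 54 potassium channel probes and the lowest at 21, where it was highest at 30% and lowest at 36.2% of all tested probes. Together these were 75.9% of the member probes and 66.1% of all. Its value was more than 1 log2 unit from the mean of the other wild-type arrays for 13 of 46 potassium channel genes, or 28.3%, and for 14.2% of all tested genes. Differences stated for a gene or probe are thus also given without this array where omission turned the sign or moved them over 1.5 times. The median size of a potassium channel difference was 0.254 with all 7 arrays and 0.132 without wild-type array 2, and over all tested genes it was 0.184 and 0.135.

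At Pde4dip, which encodes the domain in the mouse, probe ILMN_3064283 read 2228, 2502, 2198 and 2157 on the wild-type arrays and 1233, 1442 and 1498 on the knockout arrays. The groups did not overlap there (exact permutation p = 0.0286, limma adjusted p = 0.754), and they overlapped at its 2 other probes. The position of these probes and of the deleted part was not examined. Neuronal, astrocyte and oligodendrocyte markers were read, as brain RNA should hold, with the neuronal Eno2 between 7458 and 9432 and the myelin gene Mbp between 11388 and 16608 on all arrays, while the probe of Snap25 did not pass the filter.

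The promoters of 4 members that the results turn on are shown as RefSeq gives them for GRCm38.p6, 5′ to 3′, from 250 bases before to 50 after the start. Kcnc1 is shown because its probes parted between the groups. Kcnd2 and Kcnma1 are shown as members that read high on wild-type array 2, and Kcnh2 as one that read low there at its brighter probe. Capitals mark the GC box GGGCGG on either strand, a site of Sp-family factors.
Kcnc1: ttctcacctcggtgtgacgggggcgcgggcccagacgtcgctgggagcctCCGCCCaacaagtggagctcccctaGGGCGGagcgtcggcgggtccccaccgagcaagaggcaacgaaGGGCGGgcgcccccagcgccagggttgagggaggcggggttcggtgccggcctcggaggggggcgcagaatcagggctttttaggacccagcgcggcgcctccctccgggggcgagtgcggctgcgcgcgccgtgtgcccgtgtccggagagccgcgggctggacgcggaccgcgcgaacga
Kcnd2: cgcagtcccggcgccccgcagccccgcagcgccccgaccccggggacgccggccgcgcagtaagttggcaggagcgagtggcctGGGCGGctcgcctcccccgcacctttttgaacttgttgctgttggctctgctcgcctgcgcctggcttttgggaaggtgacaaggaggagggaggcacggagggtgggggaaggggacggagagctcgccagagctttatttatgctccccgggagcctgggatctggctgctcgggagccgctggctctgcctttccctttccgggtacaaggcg
Kcnma1: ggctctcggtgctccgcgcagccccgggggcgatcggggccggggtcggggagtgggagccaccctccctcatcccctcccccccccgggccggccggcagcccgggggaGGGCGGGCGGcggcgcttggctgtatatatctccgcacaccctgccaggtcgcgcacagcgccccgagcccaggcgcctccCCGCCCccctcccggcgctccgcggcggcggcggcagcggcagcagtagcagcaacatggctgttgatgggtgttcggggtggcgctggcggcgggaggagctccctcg
Kcnh2: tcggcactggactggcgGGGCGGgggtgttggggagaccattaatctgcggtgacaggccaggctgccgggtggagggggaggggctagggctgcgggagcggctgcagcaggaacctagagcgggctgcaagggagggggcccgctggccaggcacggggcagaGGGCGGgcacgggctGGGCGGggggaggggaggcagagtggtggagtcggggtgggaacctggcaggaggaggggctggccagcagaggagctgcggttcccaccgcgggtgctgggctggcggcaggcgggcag
The windows are chr7:46396218-46396517 on the plus strand for Kcnc1, chr6:21215096-21215395 on the plus strand for Kcnd2, chr14:24004156-24004455 on the minus strand for Kcnma1 and chr5:24329542-24329841 on the minus strand for Kcnh2. They hold 3, 1, 3 and 3 GC boxes in that order, counting overlapping copies. A relation of the box to the readings was not tested. A GC box was found in 42 of the 84 windows of the 62 potassium channel genes matched in this table, and in 35.7% of all 32851 windows of that length. The median GC content was 58.3% in the member windows and 52.7% in all windows, and the counts were not adjusted for it. The full cAMP response element TGACGTCA was in 0 of the 84 windows and in 1.79% of all windows. A match is a run of letters, and these counts show no binding.

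Kcnc1 read higher in knockout at one probe and lower at another, and both probes separated the groups. It encodes Kv3.1, a fast delayed rectifier of fast-spiking interneurons and auditory neurons. At its brighter probe, ILMN_2717814, the intensity was 909, 669, 788 and 777 on the wild-type arrays and 985, 922 and 1063 on the knockout arrays. Every knockout array was above every wild-type array, with a log2 difference of 0.34 (SE 0.16, 95% interval -0.02 to 0.70, limma adjusted p = 0.754, exact permutation p = 0.0571). At its dimmer probe, ILMN_1239595, the intensity was 67.4, 146.5, 62.9 and 59.5 in wild type and 51.5, 51.2 and 48.6 in knockout. Here every knockout array was below every wild-type array, with a log2 difference of -0.63 (SE 0.31, 95% interval -1.33 to 0.07, limma adjusted p = 0.754, exact permutation p = 0.0857). Wild-type array 2 had the lowest reading of the 7 arrays at the first probe and the highest at the second.

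Without wild-type array 2 the Kcnc1 differences were 0.26 (SE 0.12) and -0.33 (SE 0.11), both with a limma adjusted p of 0.794. On the log2 scale the brighter probe exceeded the dimmer within each array by 3.75, 2.19, 3.65 and 3.71 in wild type and 4.26, 4.17 and 4.45 in knockout. This within-array ratio averaged 3.33 ± 0.76 (SD, n = 4) over the wild-type arrays, 4.29 ± 0.14 (SD, n = 3) over the knockout arrays, and 3.70 ± 0.05 (SD, n = 3) in the wild-type arrays other than array 2. The difference in ratio was 0.97, or 0.59 without wild-type array 2. Since the probes parted the groups in opposite directions, the ratio had to part them as well. Its two-sided exact permutation p of 0.0571 is therefore no further evidence. Adjusted over the 8 pairs of probes compared in this way it is 0.229. That value leans on the Kcnk6 pair, which had the same p and a dimmer probe near the floor. The platform annotation gives both probes the same gene, and what part of its transcripts each probe reads was not analysed here.

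Of the 54 probes, 3 had groups that did not overlap, or 5.56%, where 7.39% of all tested probes did. They were both Kcnc1 probes and the probe of Kcnip2, and 1 was higher and 2 were lower in knockout, beside 3.44% higher and 3.94% lower of all tested probes. Separation was thus no more common among the members than on the whole array. Without wild-type array 2 it held for 7 of the 54, or 13.0%, beside 11.3% of all tested probes.

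**Figure D1:**
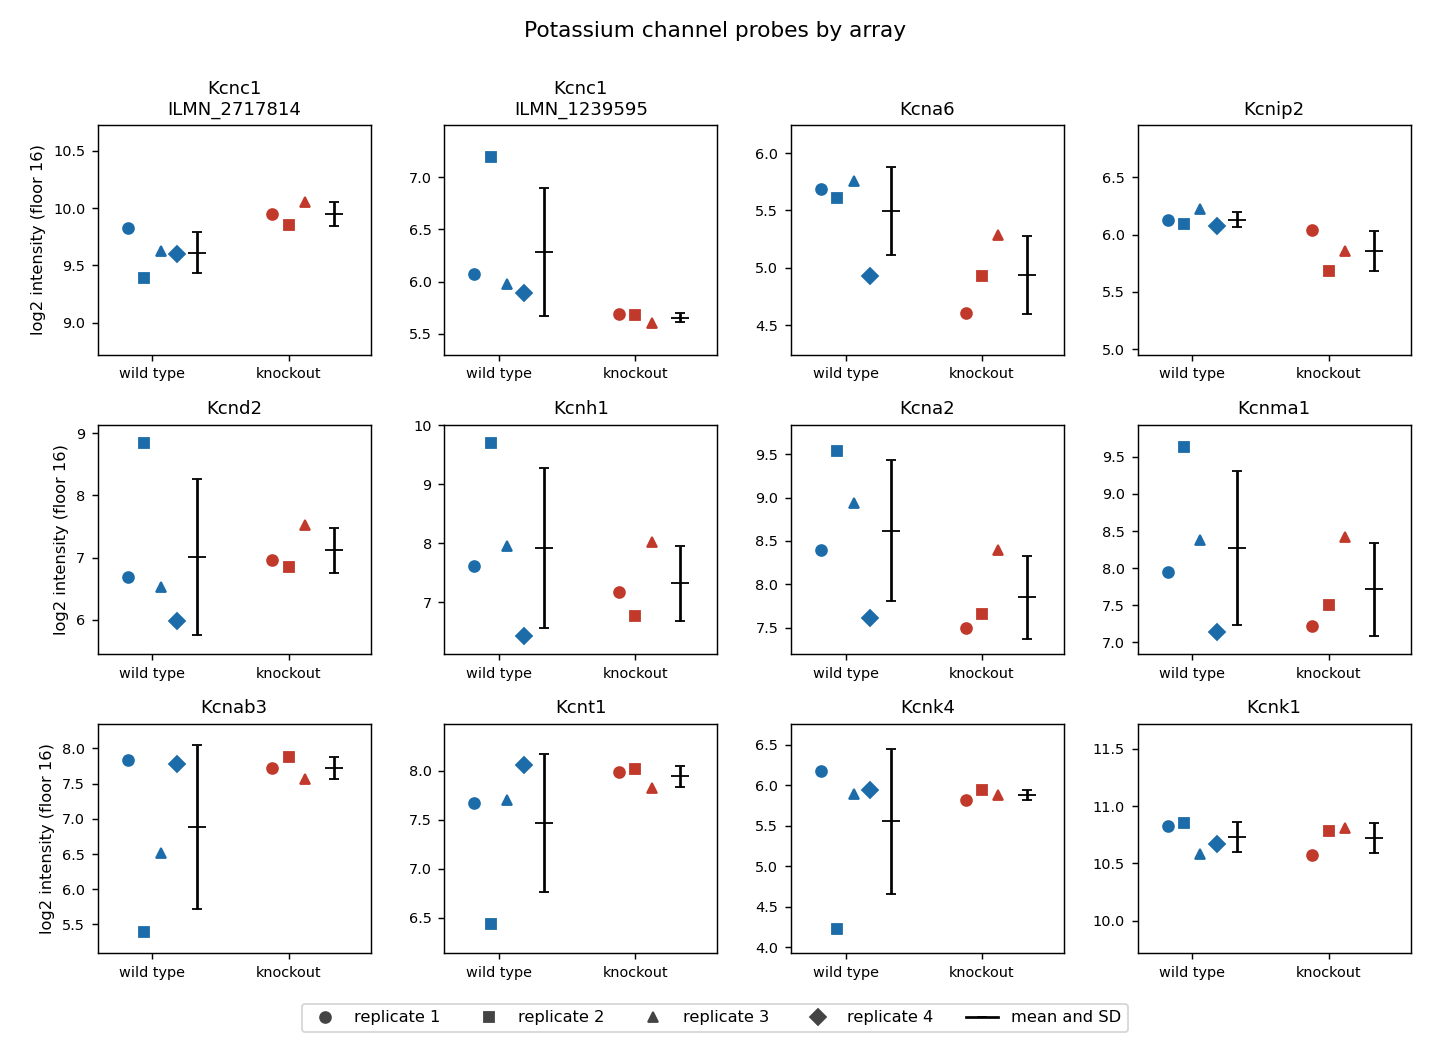
Log2 intensity, after a floor of 16, of 12 potassium channel probes on each array, with wild type in blue and knockout in red. Point shapes give the replicate number and bars the mean and SD of each group (n = 4 and 3). The squares of wild-type array 2 lie far from the other wild-type arrays for Kcnd2, Kcnh1, Kcnma1, Kcnab3, Kcnt1 and Kcnk4. At the 2 Kcnc1 probes the groups part in opposite directions.

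Among voltage-gated channels, 16 of 32 genes were tested, 10 higher and 6 lower in knockout. Their median log2 difference was 0.18. The median was 0.04 without wild-type array 2, with 8 higher and 8 lower. Two-sided limma adjusted p-values of these genes were 0.754 or above.

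Of the Kcna genes, which encode Shaker-type subunits, 3 were tested, and their groups overlapped. Kcna6, a Kv1 subunit of axons, read 51.6, 48.7, 54.2 and 30.4 in wild type and 24.3, 30.5 and 38.9 in knockout. Wild-type array 4 lay among the knockout values, so the groups overlapped. The log2 difference was -0.56 (SE 0.25, 95% interval from -1.13 to 0.02, exact permutation p = 0.143), and -0.52 without wild-type array 2. Kcna2, the Kv1.2 subunit of juxtaparanodes and axon terminals, read 336, 743, 488 and 196 in wild type and 181, 202 and 336 in knockout. Knockout array 3 and wild-type array 1 were alike there, and the log2 difference came to -0.77 (SE 0.43, 95% interval from -1.75 to 0.21, exact permutation p = 0.2), or -0.47 without wild-type array 2. Kcna3, a Kv1 subunit also found in microglia and lymphocytes, was near the floor, between 9.59 and 34.4, with a log2 difference of -0.24 (SE 0.29), or -0.02 without wild-type array 2. The probe of Kcna1 did not pass the filter. It was chosen for mention after its values were seen, since it read 254.7 on wild-type array 2 and 20.6 or less on the other arrays.

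The Shaw-type gene Kcnc4, a Kv3 subunit of fast-inactivating current, varied little. Its brighter probe read 2882, 2928, 3020 and 2590 in wild type and 2638, 2398 and 2970 in knockout. The groups overlapped, with a log2 difference of -0.10 (SE 0.15, 95% interval -0.44 to 0.23), and its dimmer probe differed by 0.02, or -0.07 without wild-type array 2.

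Kcnd2, the Kv4.2 subunit of the dendritic A-type current, had the largest deviation of array 2 from the other wild-type arrays among the 46 genes. It read 102.8, 456, 92.7 and 62.9 in wild type and 124.5, 115.6 and 184.6 in knockout. Every knockout array was above the 3 wild-type arrays other than array 2, and array 2 was above them all. The log2 difference was 0.11 (SE 0.60, 95% interval -1.26 to 1.48) with all arrays. Without wild-type array 2 it was 0.72 (SE 0.24, unadjusted p = 0.0188, limma adjusted p = 0.794). At that unadjusted threshold 2 of 54 member probes stood without array 2, namely Kcnd2 and the dimmer Kcnc1 probe, or 3.7%, beside 5.29% of all tested probes.

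The ether-à-go-go genes differed in sign. Kcnh1, the Eag1 channel of neurons, read 197, 834, 248 and 86.1 in wild type and 145.4, 109.0 and 259 in knockout. Wild-type array 2 was far above the rest and wild-type array 4 was the lowest, and the log2 difference was -0.60 (SE 0.67), or -0.01 without array 2. Kcnh2, the Erg1 channel best known from the heart's repolarisation, read 301, 129.3, 258 and 331 in wild type and 407, 333 and 324 in knockout at its brighter probe. The difference was 0.56 (SE 0.31, 95% interval -0.16 to 1.27), or 0.26 without array 2, and 0.06 at its dimmer probe (0.15 without array 2), on which wild-type array 2 was the highest array rather than the lowest. Kcnh3, an Elk channel of the forebrain, read 290 to 377 on the wild-type arrays other than array 2, 132.6 on array 2 and 301 to 334 in knockout. Its difference was 0.28 (SE 0.33), or -0.04 without array 2.

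The M-current genes read near the floor, and their groups overlapped. Kcnq3, a subunit of slow, non-inactivating current, read between 15.6 and 32.6, and Kcnq5 between 21.4 and 29.4 over all arrays. Their log2 differences were 0.25 (SE 0.23) and 0.05 (SE 0.17), or 0.10 and -0.03 without wild-type array 2.

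Silent subunits of the Kcnf, Kcng, Kcns and Kcnv groups form no channel alone and modify Kv2 channels. Of 5 tested, 4 were higher in knockout and the median log2 difference was 0.29, or 0.30 without wild-type array 2. Kcnv1 read 199.5, 86.5, 114.4 and 164.7 in wild type and 172.4, 200.1 and 237 in knockout. The groups overlapped, with a difference of 0.58 (SE 0.29, 95% interval -0.07 to 1.24, exact permutation p = 0.171), or 0.37 without array 2. Kcng4 read 333, 279, 391 and 364 in wild type and 422, 407 and 389 in knockout. Knockout array 3 lay just under wild-type array 3, and the difference was 0.26 (SE 0.16, exact permutation p = 0.0857), or 0.16 without array 2. Kcns2 read 106.4, 120.7, 88.1 and 74.7 in wild type and 76.6, 64.7 and 83.4 in knockout, a difference of -0.36 (SE 0.20), the single lower gene of the 5. Kcnf1 read 420 to 655 in wild type and 453 to 951 in knockout, overlapping groups, and differed by 0.43 (SE 0.29). Kcns1, whose difference of 0.29 (SE 0.22) is the median of the 5, was near the floor, between 13.9 and 31.9. Without wild-type arrays 2 and 3 the median of the 5 was 0.19.

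Among inward rectifiers, 7 of 12 genes were tested, 2 higher and 5 lower, with a median log2 difference of -0.09, or -0.04 without wild-type array 2. Kcnj2 passed the filter through wild-type arrays only, so it could only come out lower. Over the 6 inward rectifiers above the floor on all 7 arrays, 2 were higher and the median was -0.06. Kcnj4, the Kir2.3 channel of forebrain neurons, read 490, 400.5, 470 and 480 in wild type and 437, 466 and 495 in knockout. The groups lay over each other, with a difference of 0.02 (SE 0.14, 95% interval -0.31 to 0.35), or -0.04 without array 2. Kcnj16, the Kir5.1 subunit that pairs with Kir4.1 in astrocytes, read 147.3, 86.3, 117.9 and 126.4 in wild type and 113.3, 108.0 and 110.2 in knockout. The knockout values lay within the wild-type range, and the difference was -0.09 (SE 0.20), or -0.24 without array 2.

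The G-protein-gated and ATP-sensitive members also overlapped between the groups. Kcnj3, the GIRK1 subunit, read 38.0, 55.4, 27.4 and 28.5 in wild type and 40.9, 26.4 and 46.8 in knockout, a log2 difference of 0.05 (SE 0.30), or 0.26 without wild-type array 2. Kcnj6, the GIRK2 subunit, read 117.4 on wild-type array 2, 24.1 to 45.0 on wild-type arrays 1, 3 and 4, and 31.6 to 53.4 in knockout. Its difference was -0.35 (SE 0.48), or 0.08 without array 2. Kcnj8, the Kir6.1 pore of pericyte KATP channels, read 32.2, 65.6, 35.6 and 31.0 in wild type and 23.6, 30.8 and 38.5 in knockout. Its difference was -0.36 (SE 0.29), or -0.11 without wild-type array 2. Kcnj2, the Kir2.1 channel, was at the floor on all knockout arrays and above it on 3 of 4 wild-type arrays, at 24.4 or less, so no fold is given. Kcnj12 differed by -0.03 (SE 0.16), or -0.0035 without array 2.

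Among two-pore channels, 8 of 13 genes were tested, 3 higher and 5 lower, with a median log2 difference of -0.01, or -0.05 without wild-type array 2. Kcnk1, the TWIK-1 leak channel, read 1820, 1845, 1529 and 1625 in wild type and 1519, 1761 and 1791 in knockout. The difference was -0.01 (SE 0.15, 95% interval -0.35 to 0.33), or 0.03 without array 2, and here array 2 lay with the other arrays. Kcnk2, the mechanosensitive TREK-1 channel, read 283, 309, 211 and 306 in wild type and 234, 317 and 271 in knockout, a difference of -0.01 (SE 0.19), or 0.045 without array 2.

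For several two-pore genes wild-type array 2 lay farther from the other arrays than the groups lay from each other. Kcnk4, the TRAAK channel of nodes of Ranvier, read 72.3, 18.7, 59.2 and 61.2 in wild type and 56.5, 61.2 and 59.0 in knockout. Apart from array 2 the values were close, and the difference of 0.32 (SE 0.43) became -0.12 without it. Kcnk13, the THIK-1 channel of microglia, read 241, 473, 234 and 222 in wild type and 213, 259 and 245 in knockout. Its difference was -0.22 (SE 0.27), or 0.04 without array 2. Kcnk12, the related THIK-2, read 34.1, 19.8, 47.8 and 30.7 in wild type and 37.8, 32.5 and 30.4 in knockout, a difference of 0.08 (SE 0.28), or -0.14 without array 2. Kcnk3, the acid-sensitive TASK-1 channel, read 131.5, 47.2, 136.3 and 70.8 in wild type and 65.7, 68.3 and 116.5 in knockout, with wild-type array 2 the lowest. Its difference was -0.13 (SE 0.40), or -0.43 without array 2. Kcnk5, the TASK-2 channel, was above the floor on 3 arrays only, at 26.0 or less.

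Kcnk6, the TWIK-2 channel, also had probes of opposite sign, one of them near the floor. Its brighter probe read 87.6, 94.2, 90.4 and 78.5 in wild type and 66.7, 89.5 and 80.8 in knockout, a log2 difference of -0.16 (SE 0.16). Its dimmer probe read 21.7, 13.1, 13.6 and 12.5 in wild type, 3 of them at the floor, and 21.0, 24.0 and 20.9 in knockout, a difference of 0.34 (SE 0.17). The level of the dimmer probe in wild type is thus set by the floor, and its ratio to the brighter probe is not given. Of the 6 genes with several tested probes, 4 had probes of opposite sign: Kcnc1, Kcnc4, Kcnk6 and Kcnab1.

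Among calcium-activated channels and their relatives, 5 of 7 genes were tested, 3 higher and 2 lower, with a median log2 difference of 0.02, or -0.10 without wild-type array 2. Kcnma1, the pore of the BK channel, read 246, 793, 332 and 141.4 in wild type and 149.7, 181.2 and 344 in knockout. Wild-type array 2 was the highest and wild-type array 4 the lowest of the 7, and the difference was -0.56 (SE 0.54, 95% interval -1.79 to 0.68), or -0.10 without array 2. Kcnt1, the sodium-activated Slack channel, read 204, 86.5, 209 and 266 in wild type and 254, 260 and 226 in knockout. The difference was 0.48 (SE 0.35), or 0.13 without array 2. Kcnu1, the Slo3 channel known from sperm, read 103.1, 159.1, 92.2 and 126.7 in wild type and 126.5, 145.9 and 128.6 in knockout, a difference of 0.18 (SE 0.21), or 0.33 without array 2.

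Of the small-conductance channels, which carry the afterhyperpolarisation, Kcnn1 and Kcnn2 were tested. Kcnn1 read 87.6, 49.1, 91.9 and 91.2 in wild type and 75.2, 79.1 and 81.0 in knockout. The knockout values lay below the 3 wild-type arrays other than array 2 and above array 2, with a log2 difference of 0.02 (SE 0.24), or -0.20 without it. Kcnn2 read 20.04, 6.42, 13.0 and 28.8 in wild type and 19.4, 21.2 and 16.8 in knockout, with 2 wild-type arrays at the floor, and differed by -0.04 (SE 0.23), or -0.14 without array 2.

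Among auxiliary subunits, 10 of 16 genes were tested, 5 higher and 5 lower, with a median log2 difference of 0.13, or 0.09 without wild-type array 2. The Kcnab genes encode the cytoplasmic Kvβ subunits of Kv1 channels. Kcnab2 read 4678, 8405, 5755 and 4230 in wild type and 4009, 4005 and 4431 in knockout. Knockout array 3 lay above wild-type array 4, and knockout differed by -0.42 (SE 0.24, 95% interval from -0.97 to 0.12, exact permutation p = 0.143), or -0.23 without array 2. Kcnab3 read 228, 42.0, 91.5 and 219.7 in wild type and 212, 235 and 189.4 in knockout. Wild-type arrays 2 and 3 were low, and the difference of 0.84 (SE 0.55), the largest in size of the 46 genes, was 0.35 without array 2 and -0.08 without arrays 2 and 3. Kcnab1 read 1149, 1091, 658 and 1213 in wild type and 1131, 1360 and 1190 in knockout at its brightest probe, a difference of 0.29 (SE 0.23). Its 2 other probes gave 0.21 and -0.22, or 0.15 and 0.25 without wild-type array 2.

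The Kcnip genes encode calcium-binding partners of Kv4 channels. Of the 4 tested, Kcnip2 was the 1 gene whose groups did not overlap. It read 70.1, 68.2, 74.7 and 67.4 in wild type and 65.6, 51.3 and 57.9 in knockout. The log2 level was 6.13 ± 0.07 (SD, n = 4) and 5.86 ± 0.18 (SD, n = 3), a difference of -0.27 (SE 0.15, 95% interval -0.61 to 0.06). Its exact permutation p was 0.0286, the smallest that 35 splits of the arrays allow, and its limma adjusted p was 0.754. Kcnip1 read 82.8, 55.8, 66.7 and 89.4 in wild type and 91.3, 93.8 and 84.5 in knockout, a difference of 0.31 (SE 0.19), or 0.18 without array 2. Kcnip3, which also acts as the transcriptional repressor DREAM, read 670, 283, 619 and 640 in wild type and 717, 649 and 713 in knockout. Its difference was 0.40 (SE 0.30), or 0.11 without wild-type array 2. Kcnip4 differed by -0.08 (SE 0.24), or 0.13 without it.

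Of the remaining auxiliary genes, Kcnmb4, the β4 subunit of neuronal BK channels, read 561 to 689 in wild type and 602 to 629 in knockout at its brightest probe, a log2 difference of -0.02 (SE 0.14), or -0.08 without wild-type array 2. Kcne2, a small single-pass subunit abundant in choroid plexus, differed by 0.31 (SE 0.28) and Kcne1l by -0.21 (SE 0.22). Without wild-type array 2 these were 0.06 and -0.04.

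**Figure D2:**
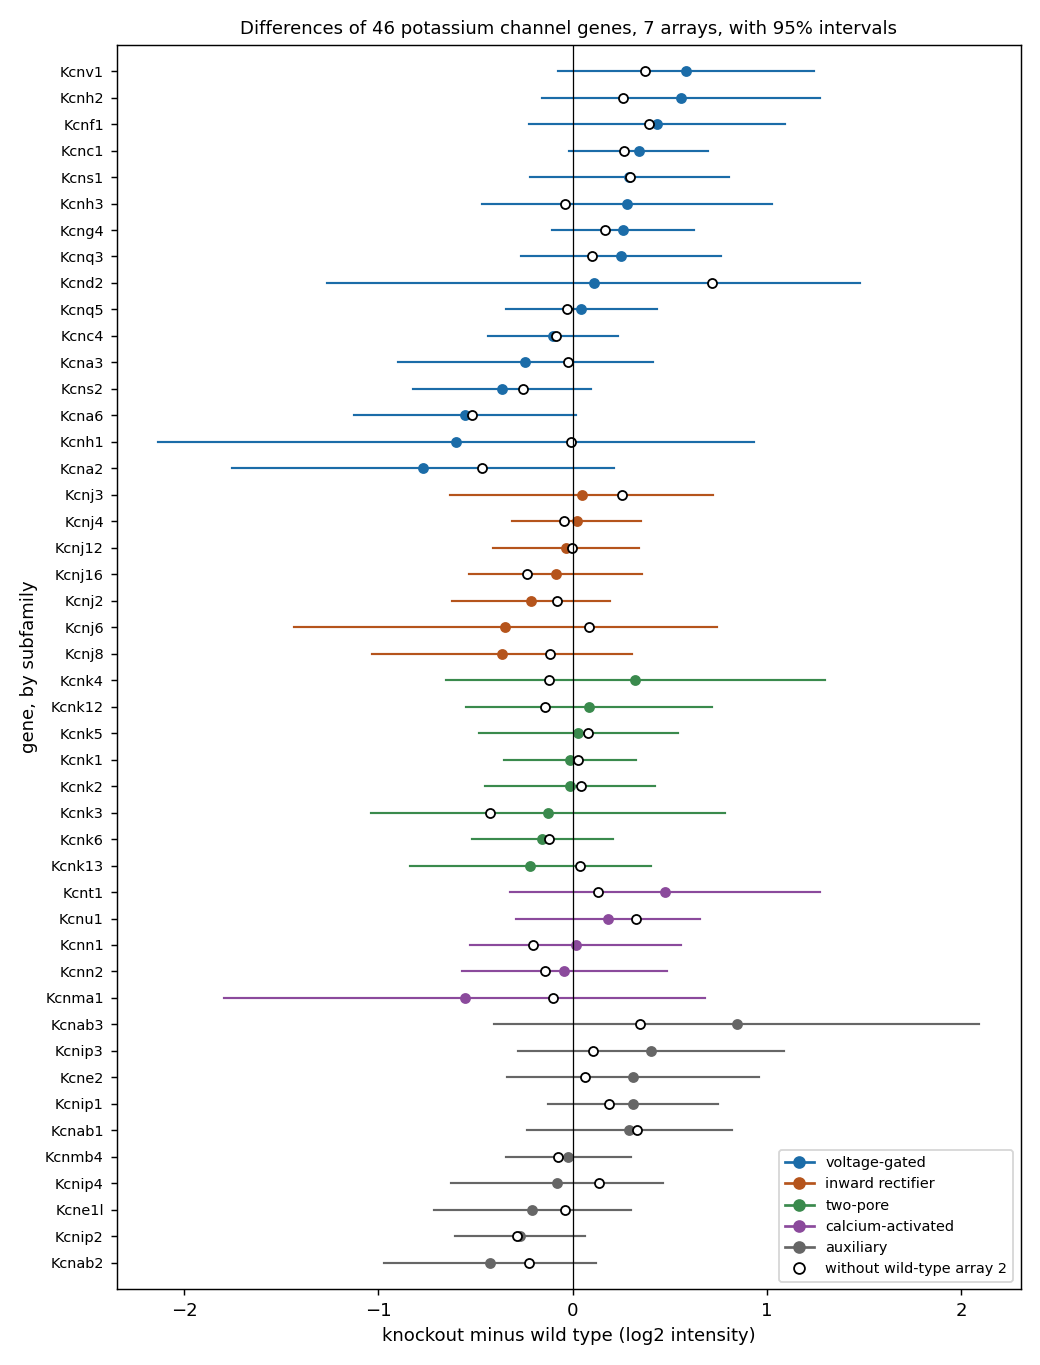
Knockout minus wild-type difference of log2 intensity for the 46 tested potassium channel genes, grouped by subfamily, with the 95% interval from limma over 7 arrays. Open circles give the difference without wild-type array 2. For 29 of the 46 genes the open circle is nearer 0, and for 11 it lies on the other side of 0. Such counts over all tested genes are not given, so these show no trait of the members.

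The wider spread of the members in the wild-type group rested mainly on array 2. The wild-type arrays spanned more than 1 log2 unit for 19 of the 46 genes, and for 4 once array 2 was set aside, while the 3 knockout arrays did so for 3 genes. A range over 4 arrays tends to be wider than one over 3, and no such counts over all tested genes are given. Array 2 read more than 1 log2 unit above the mean of the other wild-type arrays for 6 genes, Kcnd2 (2.44), Kcnh1 (2.37), Kcnma1 (1.81), Kcnj6 (1.71), Kcna2 (1.22) and Kcnk13 (1.02). It read more than 1 below for 7, Kcnab3 (-1.98), Kcnk4 (-1.77), Kcnt1 (-1.38), Kcnh3 (-1.27), Kcnk3 (-1.20), Kcnh2 (-1.19) and Kcnip3 (-1.19). These sets were formed from the same values, so no test is given for them. For Kcnd2, Kcnh1, Kcnma1 and Kcnj6, wild-type array 4 was also the lowest array of the 7 and knockout array 3 the highest of the knockout arrays.

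Mean deviations from the 7-array mean were also taken for lists of cell type and region markers. Those of some lists stood outside the range of the other arrays on wild-type array 2. The potassium channel mean did not (0.01 against -0.08 to 0.10). That of all 9079 tested genes did (-0.06 against -0.01 to 0.02). The mean deviation of the 4 measured cerebral cortex markers was 0.57 on wild-type array 2 and -0.32 to 0.15 elsewhere, and that of the 4 hypothalamic markers was -1.53 against -0.38 to 0.61. The 2 measured erythroid markers stood at 1.43 against -0.79 to 0.50, and the 5 astrocyte markers at 0.31 against -0.23 to 0.14. Hippocampus (0.55 against -0.37 to 0.36) and striatum (0.52 against -0.19 to 0.18) markers stood above the other arrays too. So did choroid plexus markers (0.29 against -0.37 to 0.20) and the 1 measured skeletal muscle marker (0.36 against -0.32 to 0.23). Endothelial and mural markers (-0.25 against -0.05 to 0.11) and liver markers (-0.76 against -0.26 to 0.28) stood below. The scores of array 2 lay within the range of the other arrays for neuron (-0.0044), oligodendrocyte (-0.02), microglia (0.02), cerebellum (-0.01), thalamus (0.37) and pituitary (1.00) markers. Against the mean of the other wild-type arrays, the measured markers of some lists were of one sign on array 2. Striatal Drd1 (1.24), Drd2 (0.23) and Ppp1r1b (0.09) were higher. So were erythroid Hba-a1 (1.00) and Alas2 (1.86), and pituitary Gh (0.66) and Prl (0.12). Apoa1 (-1.23) and Ttr (-0.47) of the liver list were lower. Markers of other lists, among them cerebral cortex and astrocyte, were not of one sign. Against the other wild-type arrays Bcl11b (1.82) and Rorb (1.03) were higher and Cux2 (-0.34) and Tbr1 (-0.08) lower among cortical markers, and Aqp4 (1.11), Gfap (0.46) and Gja1 (0.46) were higher and Slc1a3 (-0.33) and Aldh1l1 (-0.14) lower among astrocyte markers. The marker furthest from the other wild-type arrays is shown for these 2 lists, chosen after its values were seen. Bcl11b, of deep cortical layers and striatum, read 754, 2407, 988 and 427 in wild type and 302, 420 and 641 in knockout. Aqp4, the astrocyte water channel, read 778, 1441, 955 and 397 in wild type and 383, 518 and 938 in knockout. In both of these knockout array 1, not wild-type array 4, was the lowest of the 7. The part of tissue makeup or of RNA quality in the potassium channel readings was not tested. Gene length in RefSeq had a Spearman correlation of 0.24 with the deviation of array 2 over the 46 genes and 0.11 over 9075 tested genes with a length, across genes that share the same arrays.

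**Figure D3:**
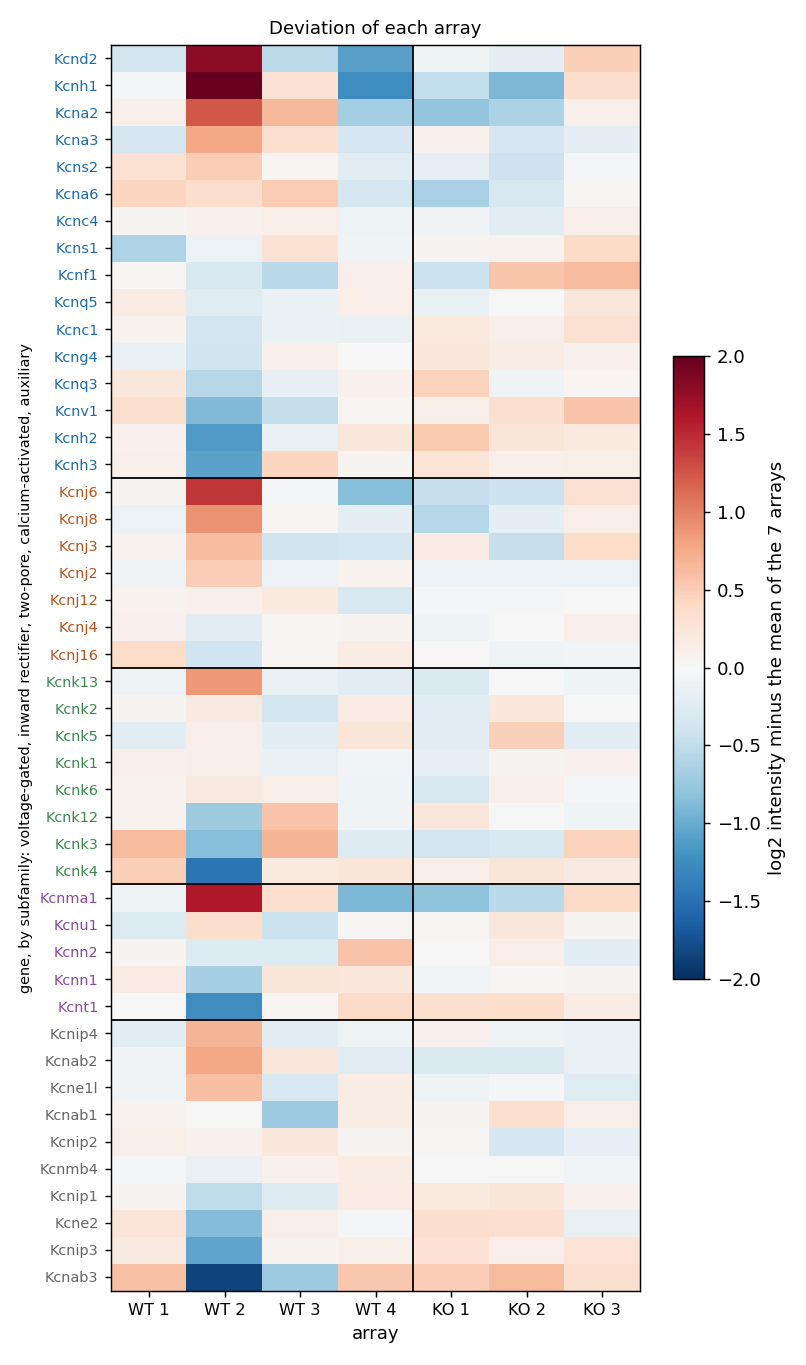
Log2 intensity of each of the 46 tested genes on each array, less the mean of the 7 arrays, in red where higher and blue where lower. Rows are grouped by subfamily and sorted by the deviation of wild-type array 2. The column of wild-type array 2 holds most of the dark cells, of both colours, and the knockout columns are mostly paler.

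The members that did not pass the filter numbered 65 probes, and for 34 genes no probe passed. Of all 119 probes, 55 were at or under the floor on all 7 arrays, 10 were above it on 1 or 2 arrays, 8 on 3 to 6 and 46 on all 7. The 34 genes were 16 voltage-gated, 5 inward rectifier, 5 two-pore, 2 calcium-activated and 6 auxiliary genes. They include Kcna4, Kcnd3, Kcnj9, Kcnk9 and Kcnn3, which are known from neurons, so a reading at the floor is a reading of that probe and bounds no transcript.

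Known partners whose symbols do not start with Kcn were read in the same fit. Of 30 partners listed, 21 were measured, 9 higher and 12 lower in knockout. Their median log2 difference was -0.04, and 0 had a limma adjusted p under 0.05. Dlg4, the scaffold PSD-95 that anchors Kv1 channels, was the 1 partner with an unadjusted p under 0.05, with a difference of -0.52 (SE 0.20, limma adjusted p = 0.754), or -0.36 without wild-type array 2. Over all tested genes 349 of 9079 had such a p. At Dlg4, Calm2 and Rgs7 the groups did not overlap, with knockout lower, as groups did not at 7.39% of all tested probes. Calm2 differed by -0.28 (SE 0.17) and Rgs7 by -0.15 (SE 0.13). Both had an exact permutation p of 0.0286 and a limma adjusted p of 0.754. The partners of next smallest unadjusted p after Dlg4 were Hcn2, Ank3 and Dpp10. Dpp10, a transmembrane partner of Kv4 channels, differed by 0.46 (SE 0.25), Ank3, which anchors Kv7 channels at the axon initial segment, by -0.59 (SE 0.31), and Hcn2, a pacemaker channel gene, by -0.50 (SE 0.24). Without wild-type array 2 the differences of Dpp10, Ank3 and Hcn2 were 0.36, -0.34 and -0.31. Dlg4, Ank3 and Hcn2 read high on that array, by 0.62, 1.01 and 0.75 against the other wild-type arrays, and Dpp10 low, by -0.41.

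On chromosome 3 the potassium channel gene nearest to Pde4dip in RefSeq gene order was Kcnd3, 164 genes away and not tested, followed by Kcna3 at 197 and Kcna2 at 200. On chromosome 7, Ctu1, Nosip and Grwd1 were taken as further points of reference with earlier results of these data known, so they are no independent choice. Kcnj14 lies next to Grwd1, Kcnc1 20 genes from it and Kcna7 39 genes from it. The probes of Kcnj14 and Kcna7 were at the floor on all arrays, so Kcnc1 is the 1 member measured within 100 genes of any of these 4 genes.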

How the data were processed

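RNA of 7 brains was labelled with biotin as cRNA and read on Illumina arrays, 1 per mouse. The values used are the normalized intensities the authors deposited, which are linear. Per the submitters' processing notes they came from GenomeStudio 2011.1; how they were normalized is not given in the sources used. Array medians lay between 14.56 and 14.62 and negative values occur, so the deposited intensities were taken as background-subtracted and normalized between arrays, which can hide differences shared by most probes. Another deposited file, which holds bead signals, was left aside because none of its 7 signal columns carries a name found in the sample labels.

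Intensities under 16 were raised to 16 and log2 was taken, which understates differences of dim probes. All 12833 probes above 16 on at least 3 arrays were fitted with limma 3.58.1 in R 4.3.3, with group as the only term and Benjamini-Hochberg adjustment over all of them at 0.05. For single probes an exact permutation test, two-sided, used all 35 splits into 4 and 3 arrays. P-values treat the arrays as separate mice, as the labels list them. A gene with several probes stands for its tested probe of highest mean signal. The platform annotation gave 1 symbol for 23978 probes, several for 0 and none for 1719, and all 119 member probes matched RefSeq (GRCm38.p6) by gene ID with 0 symbols updated.

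Genes given array by array were, per subfamily, the 2 with the brightest probes and the 2 of smallest unadjusted p in each direction (4 for voltage-gated genes), plus members within 100 genes of Pde4dip, Ctu1, Nosip or Grwd1; 29 genes met this rule. Others named with array values (Kcnd2, Kcnh3, Kcnj6, Kcnk3, Kcnip3, Kcnn1 and Kcna1) and the probe ratios were chosen after their values were seen. The members and lists were chosen with earlier results of these data known. Fixed alternatives were the floor, filter, normalization, variance model, array weights, replicate block, left-out arrays and choice of probe. On simulated arrays with 200 changed probes among 12833, the fit called 43.3% of probes changed by 1 log2 unit and 86.2% of those changed by 2, with independent noise that real arrays need not share. The number of arrays limits the precision: the median SE of a log2 difference was 0.208 over all tested probes. Figures were drawn with matplotlib 3.10.9.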

Additional observations from a re-analysis of the deposited data

Results flagged for a closer look

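In 5 of the 46 tested genes a wild-type array lay far from the other 3 by Dixon's ratio, and in each it was wild-type array 2. Its log2 intensity was the highest of 4 for Kcnk13 (8.885) and Kcnip4 (6.402), and the lowest of 4 for Kcnip3 (8.143), Kcnn1 (5.619) and Kcnk4 (4.227). These 5 genes are 10.9% of the members, beside 10.2% of all tested genes (927 of 9079, of which 649 on that array). Chance flags about 1 in 20 such groups.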

How the results depend on the processing

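Under the 18 alternatives that refit the test 0 potassium channel probes passed the adjusted threshold; the other, the mean of a gene's probes, gives a median only. The median difference over the members stayed between -0.054 and 0.033. Array weights were 6.71, 0.10, 0.34 and 0.86 on the wild-type arrays and 1.56, 2.53 and 1.26 on the knockout arrays. In that fit the wild-type level thus rests mainly on wild-type array 1. The count at an unadjusted p under 0.05, which was 0, was 11 with array weights (20.6% of all tested probes), 1 with a floor of 64 (4.18%), 3 with a floor of 8 (4.05%), 1 with an intensity trend and robust prior (3.97%), 2 with no filter (2.01%) and 4 without wild-type arrays 2 and 3 (4.05%). With replicate number as a block it was 6, where 12.0% of all tested probes had such a p. It ran from 0 to 5 when 1 array was left out, and the 5 came when wild-type array 4 was dropped (12.7% of all). Dropping wild-type array 1 gave 3 (4.41%), dropping wild-type array 2 gave 2 (5.29%), and dropping knockout array 1 or 3 gave 1 (1.93% and 2.07%). Same-numbered arrays deviated with correlations of 0.080, -0.132 and -0.037. The labels give no pairing, and correlations over so few arrays cannot tell whether the numbers pair the mice. Kcnk5 was not followed here. It was at the floor on knockout arrays 1 and 3, under the wild-type log2 mean of 4.20, so its sign rests on knockout array 2. Over the other tested genes, the sign of the difference held under every alternative run for 22 of 45, and it turned in 70 of 785 pairs of gene and alternative. Array weights turned Kcna3 (0.12), Kcnip4 (0.15), Kcnj3 (-0.088), Kcnj4 (-0.070), Kcnk12 (-0.023), Kcnk13 (0.0053), Kcnk4 (-0.22), Kcnmb4 (0.0009), Kcnn1 (-0.16), Kcnq3 (-0.060) and Kcnq5 (-0.13). Omitting wild-type arrays 2 and 3 turned Kcna3 (0.19), Kcnab3 (-0.082), Kcnh1 (0.30), Kcnip4 (0.12), Kcnj12 (0.10), Kcnj4 (-0.060), Kcnj6 (0.20), Kcnk13 (0.044), Kcnk4 (-0.18), Kcnma1 (0.17), Kcnn1 (-0.19), Kcnq3 (-0.0041) and Kcnq5 (-0.12). The replicate block turned Kcnd2 (-0.24), Kcnj3 (-0.064), Kcnk2 (0.041), Kcnmb4 (0.022) and Kcnn2 (0.14). A floor of 32 turned Kcnk12 (-0.080), a floor of 64 turned Kcnn1 (-0.079), a floor of 8 turned Kcnn2 (0.28), and log2 of intensity plus 16 turned Kcnn2 (0.13). With 1 array left out the signs turned within these ranges: Kcnd2 -0.24 to 0.72, Kcnh3 -0.039 to 0.46, Kcnip4 -0.17 to 0.13, Kcnj12 -0.14 to 0.027, Kcnj16 -0.23 to 0.022, Kcnj3 -0.12 to 0.29, Kcnj4 -0.045 to 0.066, Kcnj6 -0.68 to 0.082, Kcnk1 -0.062 to 0.064, Kcnk12 -0.14 to 0.28, Kcnk13 -0.33 to 0.038, Kcnk2 -0.14 to 0.10, Kcnk3 -0.43 to 0.083, Kcnk4 -0.12 to 0.53, Kcnmb4 -0.076 to 0.022, Kcnn1 -0.20 to 0.10, Kcnn2 -0.14 to 0.14 and Kcnq5 -0.053 to 0.13. The cause of these turns was not tested. Probes near the floor carry little signal over background, which limits what can be read from them.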
